A study of Mus musculus with 2 samples.

Results

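Iron storage and transport genes were followed here across the cell types of the aged mouse hippocampus. The group was set by name as 10 genes, and 9 of them were found by symbol among the 19059 genes measured in both libraries (Fth1, Trf, Tfrc, Slc40a1, Slc11a2, Ireb2, Aco1, Heph and Steap3). Ftl1, the ferritin light chain, was not analysed here. The study fed a steroidal alkaloid from tomato plants, tomatidine, to old C57BL/6 mice and asked how their brain cells differed from those of control mice. One library came from control mice and one from mice whose diet contained 0.05% tomatidine, and each library was made from the hippocampi of 4 mice pooled before capture. The mice were 21 months old at the start and were treated for 3 months. The tissue of both groups was flash-frozen, dissociated and fixed, and RNA was read with pairs of gene-specific probes and unique molecular identifiers (UMIs), so that a count is the number of tagged probe molecules of a gene in a cell. With 1 library per group, no test between tomatidine and control is possible and none is given. Intervals are exact 95% intervals of the UMI or cell counts, which cover counting error only and not the spread between mice or between cells.

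Iron travels in blood and brain fluid bound to transferrin (Trf), enters cells when transferrin docks on its receptor (Tfrc), is reduced in the endosome by Steap3 and leaves the endosome through the transporter Slc11a2. Inside the cell the ferritin shell, built from heavy (Fth1) and light (Ftl1) chains, stores iron in a harmless form. Ferroportin (Slc40a1) is the known exporter, and a copper oxidase such as hephaestin (Heph) oxidises the iron that it releases. Aco1 and Ireb2 encode the iron regulatory proteins, which bind a short RNA hairpin, the iron responsive element, when iron is scarce. A hairpin before the coding sequence then holds back translation, and hairpins after it protect the messenger RNA. In the brain, oligodendrocytes are known for their high iron and ferritin content, and capillary endothelium is known as the gate through which transferrin iron enters.

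The hairpins are shown because they mark which members carry this switch. RNA counts do not read its action on translation through a hairpin before the coding sequence. The UTRs of the members' coding transcripts (GENCODE M21, GRCm38) were searched on the transcribed strand for an unpaired C, 5 bases, the loop CAGTGN and 5 bases that all pair with the first 5. At least 3 of 5 pairs were also required in the stem below the C. Such a match was found in 4 of the 10 listed genes and in 45 of 21877 protein-coding genes (0.206%). Capitals mark the 6 bases of the loop, and every sequence lies within 1 exon.
Fth1, 5′ UTR, chr19:9982733-9982759, plus strand: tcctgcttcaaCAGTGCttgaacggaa
Ftl1, 5′ UTR, chr7:45459780-45459806, minus strand: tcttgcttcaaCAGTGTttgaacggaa
Slc40a1, 5′ UTR, chr1:45925466-45925492, minus strand: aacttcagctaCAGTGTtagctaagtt
Tfrc, 3′ UTR, chr16:32631220-32631246, plus strand: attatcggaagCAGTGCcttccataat
Tfrc, 3′ UTR, chr16:32631599-32631625, plus strand: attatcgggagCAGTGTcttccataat
Tfrc, 3′ UTR, chr16:32631664-32631690, plus strand: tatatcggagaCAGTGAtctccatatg
Tfrc, 3′ UTR, chr16:32631711-32631737, plus strand: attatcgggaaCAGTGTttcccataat
Both ferritin chains and the exporter carried a single match before the coding sequence, and the receptor carried 4 after it. The match was in 4 of 5 coding transcripts of Fth1, in 1 of 2 of Ftl1 and in 1 of 4 of Slc40a1, and each of the Tfrc matches was in 1 of 3. The other members had no match to these letters in their UTRs, which says nothing of other forms of the hairpin.

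Of 31097 cells deposited, 15115 control and 14503 tomatidine cells were kept, with a median of 7066 and 7408 UMIs. Clustering without the iron genes gave 38 clusters, of which 23 took 1 of 12 class names from their markers and 15 stayed unnamed. The names are rebuilt from marker genes and are not the study's own. All markers of a class were at least 2-fold higher in it than in the other cells of both libraries in 10 of 12 classes, the exceptions being the mural class (7 of 9 markers) and the excitatory neuron class (6 of 10). The libraries differed in makeup: 344 control and 33 tomatidine cells were choroid plexus-like, and oligodendrocyte-like cells made up 20% and 16.1%. RNA of 8 choroid plexus markers was lower in the tomatidine library in 11 of 12 classes, and 292 barcode sequences occurred in both libraries. The ependymal-like (34 and 14 cells) and mural-like (38 and 39 cells) classes are small. Levels are given as counts per 1000000 (CPM), the UMIs of a gene per 1000000 UMIs of all genes in the class, and are compared between classes of the same gene, never between genes, since the number of probes differs between genes.

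The members differed in the cell types where they were highest, and some shared a class. Fth1 and Trf were highest in oligodendrocyte-like cells, Tfrc and Slc40a1 in endothelial-like cells, Aco1 in oligodendrocyte precursor (OPC)-like cells, Steap3 in meningeal-like cells and Heph in meningeal-like and astrocyte-like cells, which overlapped. Slc11a2 and Ireb2 had no class at least 2-fold above the other cells in both libraries. Over the 12 classes, 15 of 108 pairs of a member and a class reached that mark. In the oligodendrocyte-like class 2 of 9 members did, against 9.11% of all genes with at least 100 UMIs. The count was 4 of 9 in endothelial-like cells (13.4% of all genes), 2 of 9 in astrocyte-like (8.07%) and meningeal-like cells (11.8%), and 1 of 9 in OPC-like (9.88%), microglia-like (11.7%), choroid plexus-like (9.02%), ependymal-like (14.0%) and mural-like cells (8.76%). No member reached it in excitatory neuron-like (5.08%), interneuron-like (3.32%) or thalamic or other subcortical neuron-like cells (4.52%). The minimum of 100 UMIs applied to all kept cells and not to the class. In the control and tomatidine libraries the mural-like pair, Steap3, rested on only 4 and 3 UMIs. The ependymal-like pair, Heph, rested on 7 and 8 UMIs, and the choroid plexus-like pair, also Heph, on 31 and 4 UMIs. The 8 pairs with at least 4-fold in both libraries were Trf in oligodendrocyte-like cells, Slc40a1 in microglia-like and endothelial-like cells, Heph in astrocyte-like, ependymal-like and meningeal-like cells, and Steap3 in astrocyte-like and meningeal-like cells. Fth1 in oligodendrocyte-like cells lay just under that mark in the control library.

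**Figure D1:**
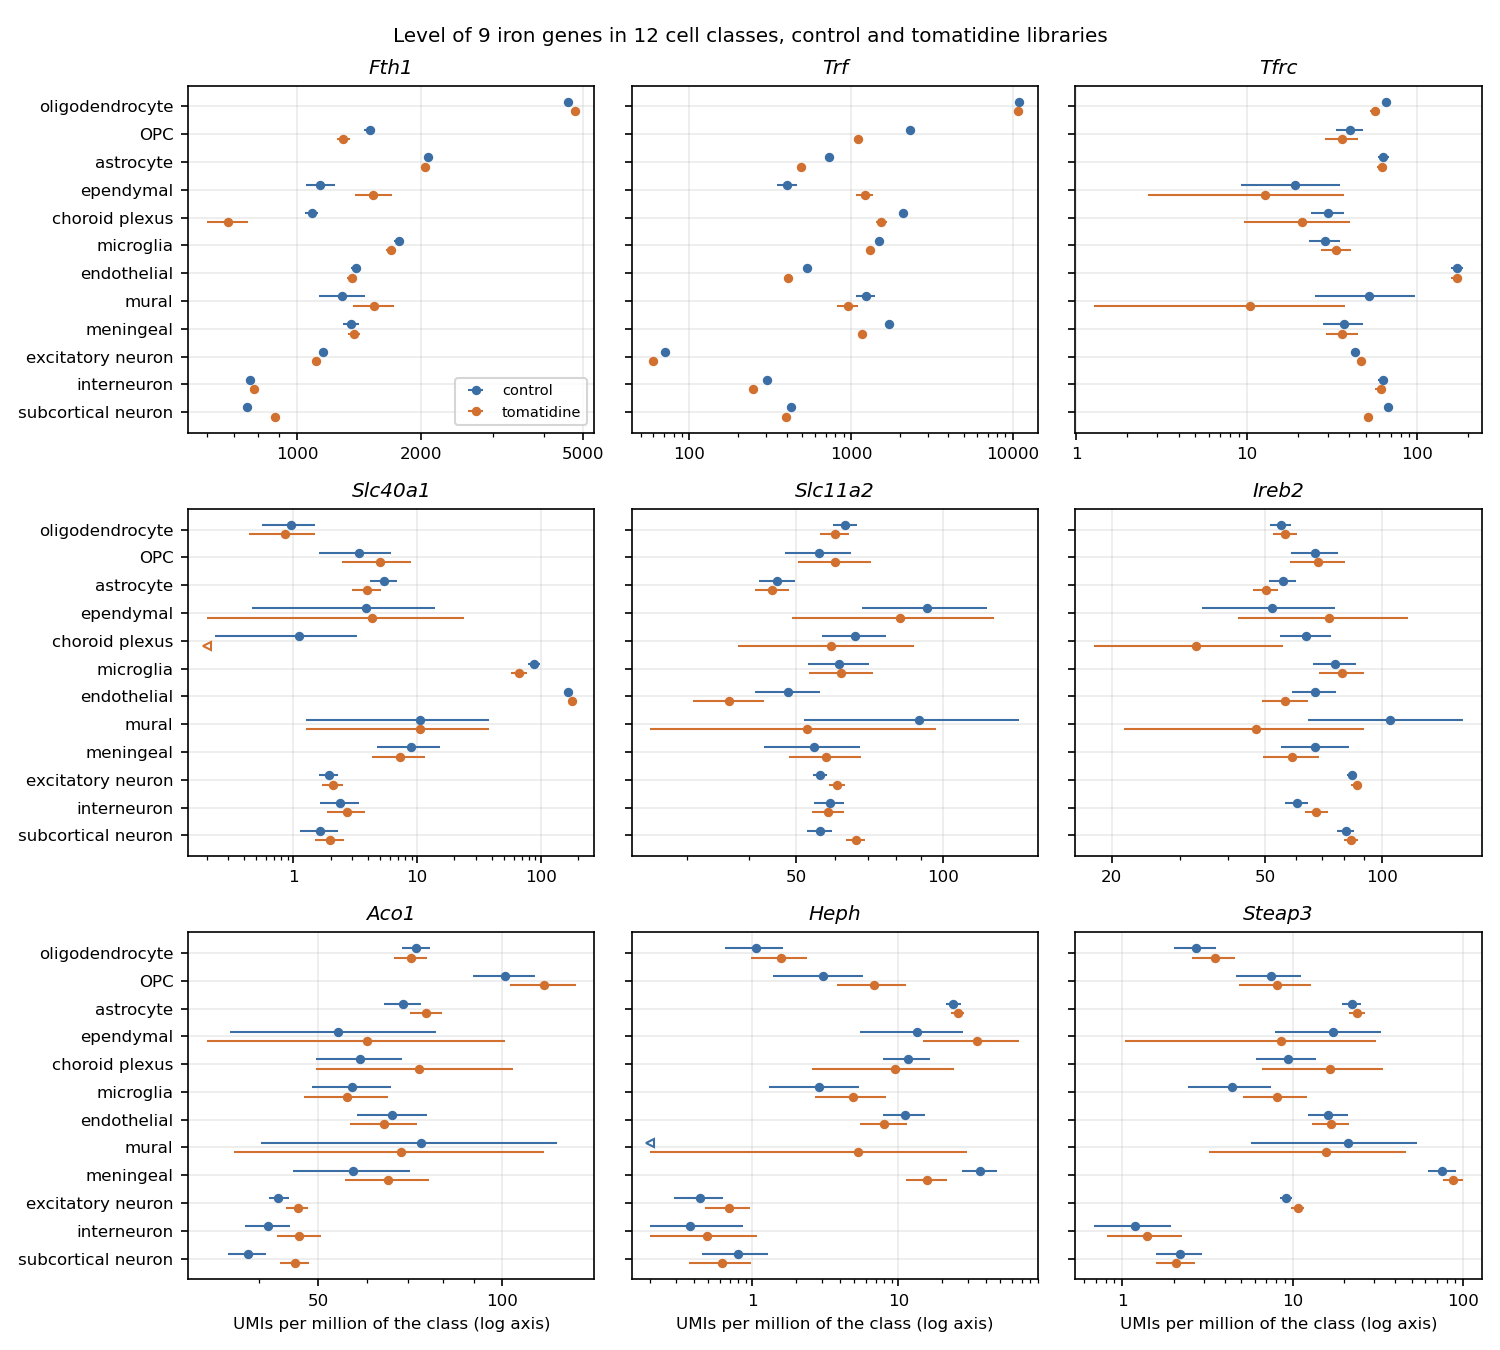
Level of each of the 9 genes (panels) in 12 cell classes, as UMIs per 1000000 of the class on a log axis whose range differs between panels, with exact Poisson 95% intervals cut at the left edge of the axis. Blue points are the control library, orange points the tomatidine library and open triangles a class with no UMI; Trf in oligodendrocyte-like cells lies at 10976 and 10724, and Slc40a1 stands out in endothelial-like and microglia-like cells.

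Fth1 (chr19:9980598-9985098, plus strand), the ferritin heavy chain that oxidises and stores iron, was read in every class. Its level in oligodendrocyte-like cells was 4573 CPM in the control and 4757 CPM in the tomatidine library, 4.0-fold (just under 4 before rounding) and 4.26-fold above the other cells. Astrocyte-like cells followed with 2080 and 2054 CPM, then microglia-like cells with 1772 and 1693 CPM. These 3 classes were in the same order in both libraries and did not overlap. Mural-like, OPC-like, endothelial-like, meningeal-like and ependymal-like cells lay between 1138 and 1535 CPM, and each overlapped its neighbour in the order. Excitatory neuron-like cells had 1157 and 1113 CPM. Interneuron-like cells (766 and 781 CPM), subcortical neuron-like cells (754 and 881 CPM) and choroid plexus-like cells (1083 and 676 CPM) overlapped at the bottom of the order. By summed UMIs, choroid plexus-like cells were the lowest class of the tomatidine library. The median choroid plexus-like cell, however, had 1190 and 1028 CPM of Fth1. The median interneuron-like cell had 676 and 687 CPM and the median subcortical neuron-like cell 635 and 695 CPM. In choroid plexus-like cells Ttr alone had 235591 and 258650 CPM. Oligodendrocyte-like cells held 28.7% and 24.3% of all Fth1 UMIs of the 2 libraries, and excitatory neuron-like cells, which carry far more RNA per cell, held 25.5% and 19.4%.

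Fth1 also varied within classes. Among oligodendrocyte-like cells, cluster 0, whose first gene by fold was Klk6, had 5141 and 5389 CPM, and cluster 3 had 3561 and 3394 CPM. Cluster 3 held slightly more control cells (1524 against 1502) and cluster 0 more tomatidine cells (1317 against 1018), so the class is weighted differently in the libraries. Among astrocyte-like cells, the largest cluster (cluster 2, with Slc25a18 and Acsbg1 in front) had 2555 and 2587 CPM, while cluster 14 had 1305 and 1276 CPM. In both classes the order of the clusters was the same in both libraries.

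Trf (chr9:103204001-103230444, minus strand), the carrier protein, was the most unevenly spread member by share of UMIs. Oligodendrocyte-like cells had 10976 CPM in the control and 10724 CPM in the tomatidine library and held 72.2% and 70.0% of all Trf UMIs. The median cell of the class had 46.0 and 42.0 Trf UMIs, and 99.9% and 99.8% of its cells had at least 1. Cluster 0 again lay above cluster 3, with 12663 and 12452 CPM against 7967 and 6992 CPM. No other class came within 4-fold of it in either library. Choroid plexus-like cells (2098 and 1544 CPM) and OPC-like cells (2313 and 1111 CPM) followed. Next by the mean of the libraries were meningeal-like cells (1707 and 1169 CPM) and microglia-like cells (1494 and 1319 CPM). Each of these classes overlapped its neighbour in the order. Excitatory neuron-like cells were lowest with 70.4 and 59.5 CPM. A Trf UMI was found in 54.4% and 46.4% of excitatory neuron-like cells (median 14833 and 13630 UMIs per cell), and in 10.5% and 8.68% once every cell was thinned to 1500 UMIs, against 99.7% of thinned oligodendrocyte-like cells in both libraries (median 5304 and 4844 UMIs).

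Oligodendrocyte RNA was present in every class, so Trf was set beside it. In oligodendrocyte-like cells there were 171 and 173 Trf UMIs per 1000 UMIs of 10 oligodendrocyte markers (Mbp, Mog and others). The ratio was 158 and 138 in OPC-like cells, 148 and 123 in subcortical neuron-like cells, 145 and 126 in mural-like cells, 133 and 121 in endothelial-like cells, 123 and 119 in interneuron-like cells, 103 and 85.2 in astrocyte-like cells and 90.2 and 79.7 in excitatory neuron-like cells. In these classes Trf was no higher, relative to marker RNA, than in oligodendrocyte-like cells. The ratio was higher in microglia-like cells (364 and 363), meningeal-like cells (309 and 297) and choroid plexus-like cells (683 and 1141). It was 126 and 185 in the few ependymal-like cells. In microglia-like cells Trf was also spread evenly: the median cell had 1329 and 1249 CPM, and the 10% of cells with the most Trf held 33.9% and 32.2% of the UMIs. In OPC-like cells the same 10% held 83.9% and 89.7%, and in astrocyte-like cells 81.0% and 79.0%.

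**Figure D2:**
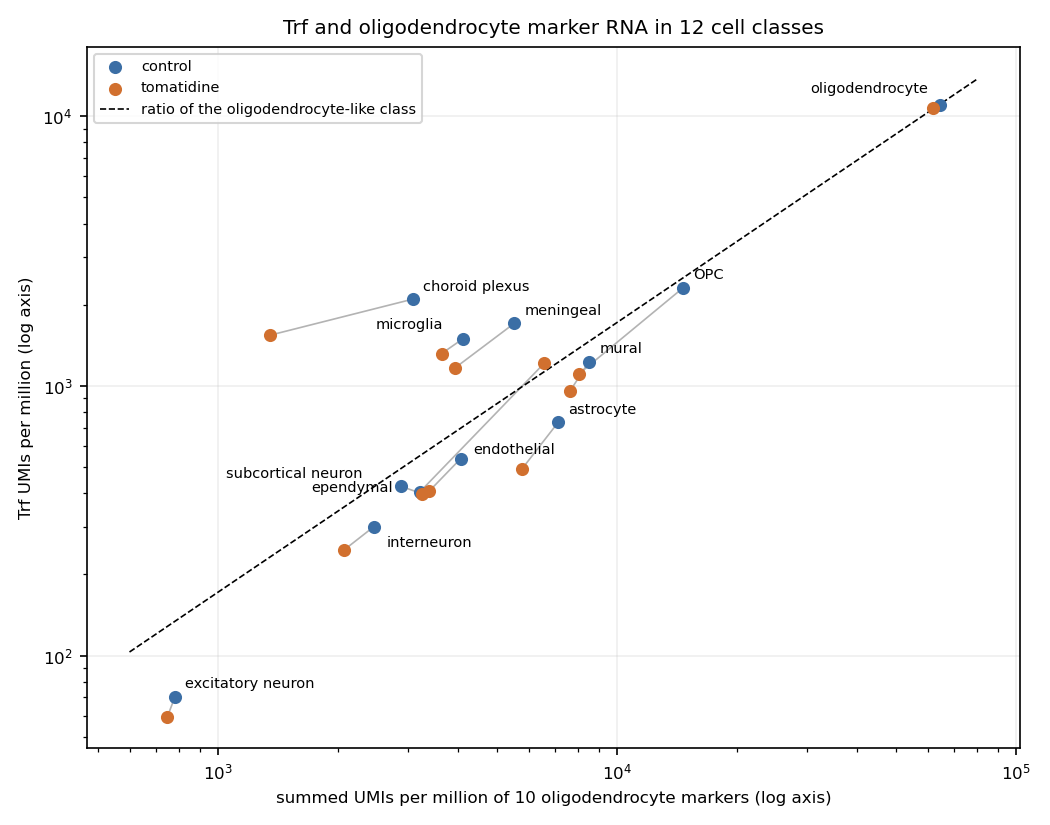
Trf level against the summed level of 10 oligodendrocyte markers, both as UMIs per 1000000 on log axes, in 12 cell classes; blue points are the control library, orange points the tomatidine library, grey lines join the 2 libraries of a class, and the dashed line is the mean ratio of the oligodendrocyte-like class. Choroid plexus-like, microglia-like and meningeal-like cells lie above the line in both libraries, while astrocyte-like, endothelial-like and neuron-like cells lie below it.

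Tfrc (chr16:32608920-32632794, plus strand), the transferrin receptor, was highest in endothelial-like cells, with 172 CPM in the control and 171 CPM in the tomatidine library. This was 3.30-fold and 3.33-fold above the other cells. The next classes, astrocyte-like, interneuron-like, oligodendrocyte-like and subcortical neuron-like cells, lay between 51.3 and 67.4 CPM and overlapped each other. Microglia-like cells had 28.7 and 33.6 CPM. After thinning to 1500 UMIs, 21.8% (95% Clopper-Pearson interval from 16.9%) and 21.3% (from 17.1%) of endothelial-like cells had a Tfrc UMI, against 6.63% and 6.77% of excitatory neuron-like cells. Unthinned, the shares were 55.4% and 47.7% in endothelial-like cells (median 6358 and 4526 UMIs) and 49.1% and 48.2% in the deeper excitatory neuron-like cells.

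Within the endothelial-like class the receptor followed the vessel type. Cells were assigned to the vessel type whose marker UMIs were highest, with at least 2, which is a cut in a range and not a separate clustering. Capillary-type cells (229 and 275 cells) had 185 and 199 CPM of Tfrc. Venous-type cells (31 and 67 cells) had 65.1 and 57.7 CPM. Arterial-type cells (7 and 22) had only 2 and 5 UMIs, or 51.6 and 17.9 CPM. A further high value lay among neurons: cluster 32, a small subcortical neuron-like cluster led by Gpr151, Chrnb4 and Tac2, had 216 and 305 CPM (473 and 148 UMIs in 130 and 35 cells), whereas the class's other clusters, 9 and 20, had between 46.0 and 50.7 CPM.

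Steap3 (chr1:120190757-120272705, minus strand), the endosomal ferrireductase, was highest in meningeal-like cells, with 75.6 and 87.6 CPM, or 12.7-fold and 14.1-fold above the other cells. Astrocyte-like cells followed with 22.2 and 24.0 CPM, then mural-like cells (4 and 3 UMIs) and endothelial-like cells, which overlapped at 15.8 to 21 CPM. Within the astrocyte-like class, clusters 14 (41.9 and 36.5 CPM) and 28 (26.1 and 40.1 CPM) lay above cluster 2 (10.4 and 13 CPM), which had more Fth1 than either. Neurons were unlike each other. Excitatory neuron-like cells had 9.13 and 10.7 CPM, and interneuron-like cells 1.19 and 1.39 CPM. Among the excitatory clusters, cluster 5, led by Fibcd1 and Spink8, had 0.781 and 0.613 CPM, whereas cluster 1, with C1ql2 among its leading genes, had 14.5 and 15.1 CPM and cluster 4 had 9.99 and 13.9 CPM.

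Slc11a2 (chr15:100387898-100425072, minus strand), which carries iron out of the endosome, was nearly even. All 12 classes lay between 36.5 and 92.4 CPM. The 7 classes from microglia-like to meningeal-like cells in the order of levels spanned 54.3 to 66.3 CPM and overlapped their neighbours. Astrocyte-like cells (45.8 and 44.7 CPM) and endothelial-like cells (48.2 and 36.5 CPM) were lowest.

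Slc40a1 (chr1:45908068-45926523, minus strand), the iron exporter ferroportin, was nearly restricted to a pair of classes. Endothelial-like cells had 166 CPM in the control and 178 CPM in the tomatidine library, 44.5-fold and 51.0-fold above the other cells. Microglia-like cells had 87.8 and 66.8 CPM, or 16.9-fold and 11.2-fold. Endothelial-like cells held 43.5% and 50.0% of the UMIs of the gene and microglia-like cells 20.8% and 14.0%. The remaining classes lay at or below 10.5 CPM, and oligodendrocyte-like cells, the class with the most Fth1 and Trf, had 0.952 and 0.855 CPM (18 and 12 UMIs in 3026 and 2335 cells). After thinning to 1500 UMIs, 22.8% and 22.5% of endothelial-like and 13% and 10.9% of microglia-like cells had a UMI, against 0.309% and 0.346% of excitatory neuron-like cells. Unthinned, the shares were 54.4% and 47.3%, 23.9% and 19%, and 3.53% and 3.57%, at a median of 3076 and 2855 UMIs in microglia-like cells.

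The microglia-like class joined cells of unlike depth. Cluster 8, led by Tmem119 and P2ry12, had 111 and 85.1 CPM of Slc40a1. Cluster 17, led by Ctss and C1qb, had 24.7 and 31.6 CPM, and its cells had a median of 1421 UMIs against 3686 in cluster 8. An unnamed cluster led by H2-Ab1, Mrc1 and Cd74 (cluster 27; 155 and 131 cells) had 95.3 and 107 CPM. In vessels, capillary-type cells had 168 and 206 CPM and venous-type cells 184 and 63.2 CPM (51 and 23 UMIs).

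Heph (chrX:96455359-96574485, plus strand), the membrane ferroxidase hephaestin, had the fewest UMIs of the members, 558 and 643. Astrocyte-like cells had 23.8 and 25.5 CPM, 16.6-fold and 16.5-fold above the other cells, and held 49.8% and 55.2% of its UMIs. Meningeal-like cells had 36.4 and 15.8 CPM from 53 and 39 UMIs, and ependymal-like cells 13.5 and 34.3 CPM from 7 and 8 UMIs. Both overlapped astrocyte-like cells in the order. Choroid plexus-like (11.6 and 9.43 CPM) and endothelial-like cells (11.1 and 8.03 CPM) followed. Oligodendrocyte-like and neuron-like cells lay at or below 1.57 CPM. Among the astrocyte-like clusters, cluster 26, with Agt and Gli1 among its leading genes, had 46.5 and 59.1 CPM and cluster 2 had 16.1 and 19.5 CPM.

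Aco1 (chr4:40143081-40198338, plus strand) and Ireb2 (chr9:54863789-54912530, plus strand), the iron regulatory proteins, were both read in every class. Aco1 was highest in OPC-like cells, with 101 and 117 CPM, 2.16-fold and 2.36-fold above the other cells, and next in astrocyte-like (68.8 and 75.1 CPM) and oligodendrocyte-like cells (72.2 and 70.9 CPM), which overlapped. The 3 neuron-like classes were lowest, between 38.3 and 46.5 CPM. Ireb2 had another order. By the mean of the libraries, excitatory neuron-like cells (83.6 and 86.0 CPM) and subcortical neuron-like cells (80.5 and 83.2 CPM) were highest, and oligodendrocyte-like (54.8 and 56.2 CPM) and astrocyte-like cells (55.4 and 50.1 CPM) were near the bottom. Mural-like cells had 105 and 47.3 CPM of Ireb2, but from 20 and 9 UMIs.

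**Figure D3:**
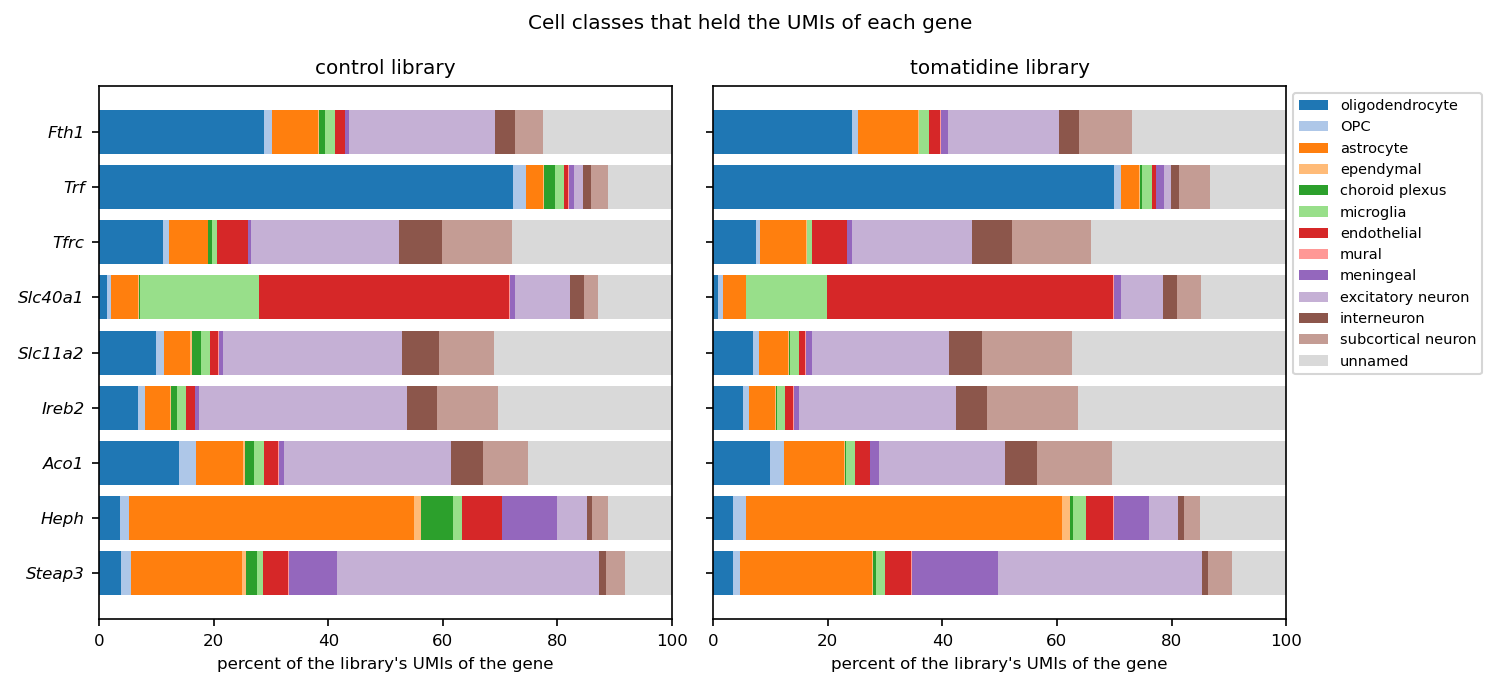
Percent of each library's UMIs of a gene (horizontal axis, stacked to 100) that lay in each of the 12 named classes or in unnamed clusters (grey), for the control library on the left and the tomatidine library on the right. Trf is mostly in oligodendrocyte-like cells, Slc40a1 in endothelial-like and microglia-like cells and Heph in astrocyte-like cells, while Slc11a2, Ireb2 and Aco1 are spread with the RNA of all cells.

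Between tomatidine and control, 5 of the class-enriched pairs had these values. Fth1 in oligodendrocyte-like cells had a log2 ratio of tomatidine over control of 0.06 (0.04 to 0.07), Trf in the same cells −0.03 (−0.04 to −0.02), Tfrc in endothelial-like cells −0.01 (−0.17 to 0.15), Slc40a1 in endothelial-like cells 0.10 (−0.06 to 0.26) and Aco1 in OPC-like cells 0.22 (−0.03 to 0.46). All 5 were within the fold defined next. So were Heph (0.10) and Steap3 (0.11) in astrocyte-like cells and Steap3 in endothelial-like (0.05) and meningeal-like cells (0.21). Slc40a1 in microglia-like cells (−0.39) was past it. The remaining class-enriched pairs had too few UMIs to be counted. They were Steap3 in mural-like cells (−0.41) and Heph in meningeal-like (−1.20), endothelial-like (−0.47), choroid plexus-like (−0.30) and ependymal-like cells (1.35). Among the pairs counted below, the largest differences were of Trf in OPC-like (−1.06), astrocyte-like (−0.57) and meningeal-like cells (−0.55), lower in the tomatidine library. Slc40a1 in astrocyte-like cells (−0.45) came next. A gene was counted as past the fold when its CPM in the higher library exceeded that in the lower by at least 25% and it had at least 100 UMIs in the class over both. Of 65 pairs of a member and a class with enough UMIs, in the 9 larger classes, 1 was higher and 8 were lower in the tomatidine library, 4 of the 8 being Trf. With the mean of per-cell CPM in place of summed UMIs, 4 were higher and 8 lower, and no share of all genes was computed for that setting.

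The counts stand beside the share of all genes past the same fold. In oligodendrocyte-like cells 1 of 7 members was past the fold, against 9.56% of 11150 genes. The count was 1 of 6 in OPC-like cells (17.5% of all genes), 2 of 9 in astrocyte-like cells (8.88%), 1 of 7 in microglia-like cells (16.9%), 2 of 8 in endothelial-like cells (17.2%), 1 of 7 in meningeal-like cells (21.9%) and 1 of 7 in subcortical neuron-like cells (26.5%). It was 0 of 8 in excitatory neuron-like cells (8.88%) and 0 of 6 in interneuron-like cells (9.62%). Of all genes past the fold, more were higher than lower in the tomatidine library in most classes. The exceptions were astrocyte-like cells (500 higher and 535 lower) and meningeal-like cells (771 higher and 1058 lower). The median log2 ratio of the members lay between −0.07 and 0.10 in the 9 classes, beside −0.03 to 0.05 for all genes.

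**Figure D4:**
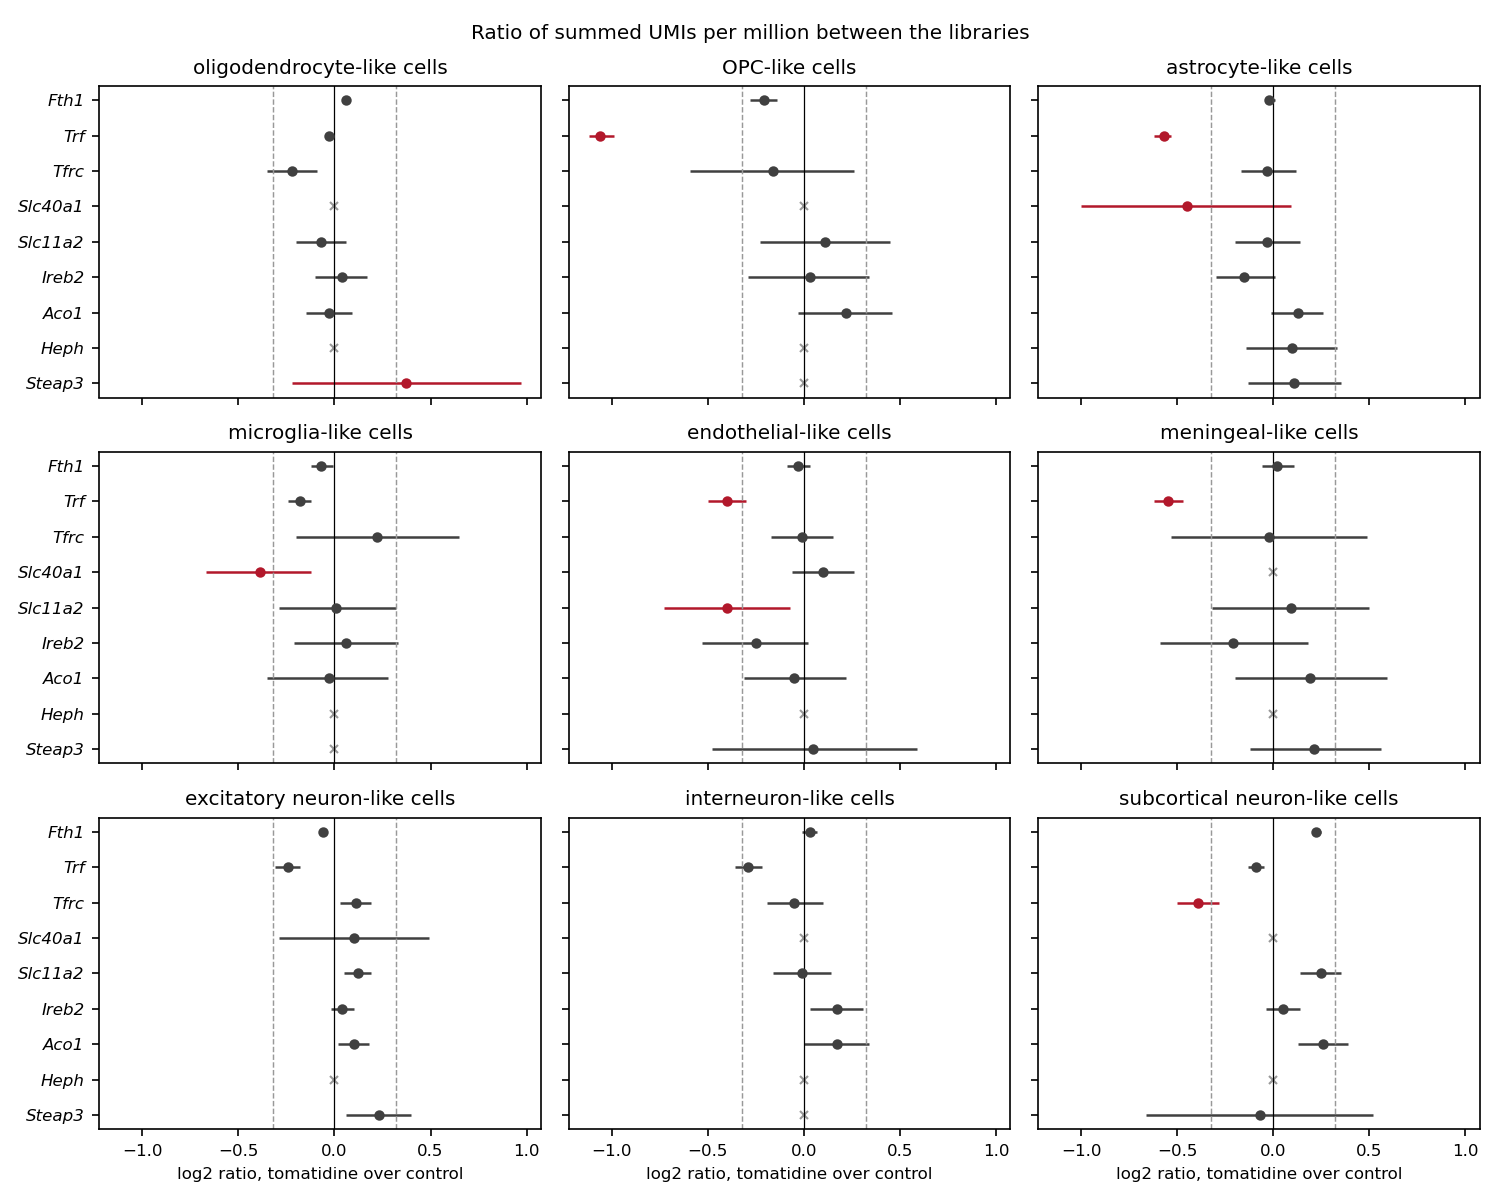
Log2 ratio of the level in the tomatidine library over that in the control library for each gene in 9 cell classes, with exact conditional binomial 95% intervals of the UMI counts. Red points lie past the fold (dashed lines) and grey crosses mark genes with fewer than 100 UMIs in the class; Trf in OPC-like cells is farthest from 0, at −1.06.

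Trf in OPC-like cells was 2313 CPM in the control and 1111 CPM in the tomatidine library (6858 and 2456 UMIs; log2 ratio −1.06, −1.12 to −0.99). Oligodendrocyte marker RNA moved with it, from 14640 to 8035 CPM (log2 ratio −0.87), with 10 of 10 markers lower. The 10% of OPC-like cells with the most Trf held 83.9% and 89.7% of its UMIs, and the median cell had 193 and 42.7 CPM. The class was cluster 12, led by Gpr17 and Neu4, which the marker lists assign to committed oligodendrocyte precursors, and then by Pdgfra and Cspg4. When OPC-like cells were taken by a marker gate on single cells in place of clusters, the Trf ratio was −0.49. The part of oligodendrocyte RNA in the Trf difference was not tested.

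In astrocyte-like cells Trf was 733 CPM in the control and 493 CPM in the tomatidine library (log2 ratio −0.57, −0.62 to −0.53). Cluster 28, with Gfap and Myoc among its leading genes, held 5718 of 8545 and 3962 of 6869 of the UMIs in 140 and 141 cells, with 2716 and 1869 CPM. Without it the ratio was −0.27, which is within the fold. Cluster 2 had 355 and 280 CPM, cluster 14 had 208 and 177 CPM and cluster 26 had 172 and 205 CPM. The median UMIs per cell were 12822 in cluster 28, 3043 in cluster 2, 6630 in cluster 14 and 4728 in cluster 26. Oligodendrocyte markers were at 7117 and 5779 CPM in the class (log2 ratio −0.30), with 8 of 10 lower, and their part was not tested.

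Meningeal-like cells had 1707 and 1169 CPM of Trf (log2 ratio −0.55, −0.62 to −0.47), beside 5525 and 3932 CPM of oligodendrocyte markers, 9 of 10 of which were lower. Endothelial-like cells had 538 and 408 CPM (log2 ratio −0.40, −0.50 to −0.30), beside 4056 and 3385 CPM of those markers, again with 9 of 10 lower. By vessel type, Trf was 539 and 362 CPM in capillary-type cells and 535 and 638 CPM in venous-type cells. Stricter limits on genes and mitochondrial RNA per cell turned the sign of the endothelial-like ratio, to 0.63. Choroid plexus markers in endothelial-like cells were 2296 and 93.8 CPM. The part of either marker group in these differences was not tested. Over whole libraries Trf was 1393 and 1075 CPM (log2 ratio −0.37, −0.38 to −0.37), beside a share of oligodendrocyte-like cells of 20% and 16.1%.

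**Figure D5:**
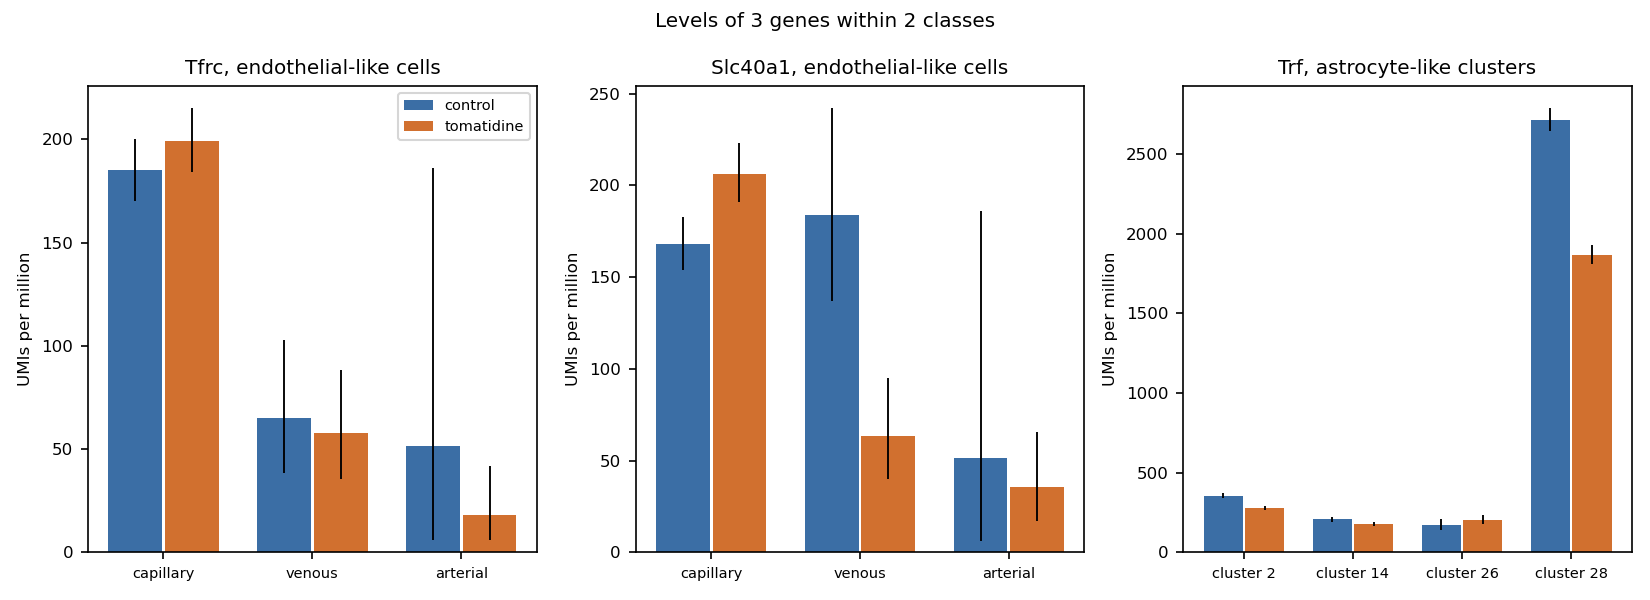
Level in UMIs per 1000000 of Tfrc and of Slc40a1 in capillary-type, venous-type and arterial-type endothelial-like cells, and of Trf in the 4 astrocyte-like clusters, as bars from 0 with exact Poisson 95% intervals (control blue, tomatidine orange). Capillary-type cells are highest for Tfrc in both libraries, and cluster 28 is highest for Trf among the astrocyte-like clusters.

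Most of the other differences past the fold were in genes with few UMIs. Slc40a1 was lower in microglia-like cells of the tomatidine library (278 and 191 UMIs; 87.8 and 66.8 CPM; log2 ratio −0.39, −0.67 to −0.12). In cluster 8 alone the ratio was −0.38 (−0.68 to −0.09), and in the shallow cluster 17 it was 0.36 (−0.49 to 1.23). In astrocyte-like cells Slc40a1 had 5.40 and 3.94 CPM (63 and 55 UMIs), with an interval that included 0 (−1.0 to 0.09). Slc11a2 in endothelial-like cells was 48.2 and 36.5 CPM (log2 ratio −0.40, −0.73 to −0.07), but 0.01 under the marker gate. Steap3 in oligodendrocyte-like cells had 51 and 49 UMIs (log2 ratio 0.37, −0.22 to 0.97).

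Tfrc in subcortical neuron-like cells had 67.4 CPM in the control and 51.3 CPM in the tomatidine library (log2 ratio −0.39, −0.50 to −0.28). Different clusters held most of that class in the 2 libraries: cluster 9 held 181 control and 672 tomatidine cells, cluster 20 held 301 and 239, and the Tfrc-rich cluster 32 held 130 and 35. Within them Tfrc was 50.7 and 47.4 CPM, 48.6 and 46.0 CPM, and 216 and 305 CPM. No cluster of the class was lower past the fold. Heph in meningeal-like cells, with 92 UMIs in all, stayed under the minimum and was 36.4 and 15.8 CPM (log2 ratio −1.20, −1.84 to −0.58).

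The wider iron pathway was described by 41 other genes in 6 roles, all found in the libraries, of which 36 had at least 100 UMIs over all cells. The counts are to be read beside the all-gene shares given above for the members, which were also higher in endothelial-like, meningeal-like and ependymal-like cells than in neuron-like cells. At least 2-fold enrichment in both libraries was seen for 9 of 36 in endothelial-like cells, 8 in meningeal-like cells, 6 each in choroid plexus-like and ependymal-like cells, 5 in microglia-like cells, 4 each in OPC-like and mural-like cells, 3 in astrocyte-like cells, 2 in oligodendrocyte-like cells, 1 in subcortical neuron-like cells and 0 in excitatory neuron-like and interneuron-like cells. The following examples were chosen after their values were seen. Bmp6, the signal by which liver endothelium reports iron load, had 871 and 999 CPM in meningeal-like cells, 68.8-fold and 136-fold above the other cells. The ferroxidase Cp had 618 and 565 CPM there and 208 and 235 CPM in endothelial-like cells. The haem carrier Slc48a1 had 1142 and 1225 CPM in oligodendrocyte-like cells, and the transporter Slc39a8 had 100 and 91.0 CPM in endothelial-like cells.

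By role, the genes with the most UMIs over whole libraries had the following levels, and of these Cp was past the fold. Among uptake and reduction genes Slc22a17 had 1118 and 1109 CPM and Slc39a14 had 44.0 and 40.9 CPM. In oxidation and export Cp had 12.9 and 16.5 CPM (log2 ratio 0.36, 0.29 to 0.43), beside 283 control and 530 tomatidine meningeal-like cells, and Hephl1 had 0 and 2 UMIs. Among chaperones and ferritin turnover genes Pcbp1 had 126 and 121 CPM and Ncoa4, the receptor that delivers ferritin to lysosomes, had 101 and 93.2 CPM. Among sensing genes Fbxl5, the iron-dependent brake on the regulatory proteins, had 126 and 129 CPM and Neo1 had 62.5 and 60.5 CPM. For mitochondria the iron importer Slc25a28 had 53.6 and 61.2 CPM. For haem Slc48a1 had 285 and 279 CPM and Hmox2, a haem oxygenase, had 149 and 141 CPM.

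Class by class, 47 of 239 pairs of an other iron gene and a class were past the fold, 23 higher and 24 lower in the tomatidine library. The share of all genes past the fold was 8.88% to 26.5% by class, as given above. With TMM scaling factors the split was 15 higher and 26 lower. In endothelial-like cells 0 of 28 genes were higher and 8 were lower (914 higher and 857 lower of 10279 genes in all), with a median log2 ratio of −0.11 beside 0.02 for all genes. The siderophore-binding protein Lcn2 had 69.8 and 35.2 CPM (log2 ratio −0.99, −1.30 to −0.68), Alas2, the haem synthesis enzyme of red cell precursors, 79.0 and 41.5 CPM (−0.93, −1.22 to −0.64), the mitochondrial iron importer Slc25a37 44.8 and 28.2 CPM (−0.66, −1.03 to −0.30) and the metal transporter Slc39a14 23.4 and 16.6 CPM (−0.50, −0.99 to −0.01). The 6 red cell genes listed as markers summed to 4216 and 2034 CPM in the same cells (log2 ratio −1.05), with 6 of 6 lower, and their part was not tested.

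In microglia-like cells 6 of 24 other iron genes were higher and 2 lower, beside 1129 higher and 478 lower of 9488 genes in all. Red cell genes summed to 115 and 58.7 CPM in these cells, with 4 of 6 lower, and their part was not tested. Slc22a17 had 314 and 421 CPM (log2 ratio 0.42, 0.30 to 0.54), Slc39a14 22.4 and 31.8 CPM (0.51, 0.04 to 0.97), Blvrb, a biliverdin reductase, 45.1 and 31.1 CPM (−0.54, −0.94 to −0.15) and Slc39a8 20.2 and 15.0 CPM, with an interval that included 0. Meningeal-like cells had 2 of 23 higher and 2 lower, beside 771 higher and 1058 lower of 8361 genes in all. There Scara5, a receptor that takes up ferritin, had 87.9 and 38.9 CPM (log2 ratio −1.18, −1.57 to −0.78), Blvrb 26.1 and 41.0 CPM (0.65, 0.10 to 1.23), Alas1 41.9 and 63.3 CPM (0.59, 0.16 to 1.05) and Ncoa4 90.7 and 66.9 CPM (−0.44, −0.78 to −0.10). Red cell genes were 233 and 476 CPM in meningeal-like cells.

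Astrocyte-like cells had 1 of 30 higher and 3 lower, beside 500 higher and 535 lower of 11659 genes in all. Lcn2 had 23.1 and 13.6 CPM (log2 ratio −0.77, −1.04 to −0.49), Cp 6.00 and 8.89 CPM (0.57, 0.13 to 1.01), Bmp6 41.2 and 29.5 CPM (−0.48, −0.67 to −0.29) and the ferric reductase Cybrd1 15.3 and 11.1 CPM (−0.46, −0.78 to −0.14). In OPC-like cells 2 of 23 were higher and 3 lower, beside 908 higher and 732 lower of 9385 genes in all. These iron genes included Hmox1, the inducible haem oxygenase, with 33.4 and 21.7 CPM (−0.62, −1.15 to −0.11), and Slc48a1 with 340 and 243 CPM (−0.49, −0.64 to −0.33). The latter is itself highest in oligodendrocyte-like cells. In oligodendrocyte-like cells 2 of 26 were higher and 2 lower, beside 831 higher and 235 lower of 11150 genes in all. The iron genes were led by Bmp6 with 9.52 and 6.34 CPM (−0.59, −0.97 to −0.21) and Slc25a37 with 8.72 and 11.8 CPM (0.43, 0.11 to 0.75).

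In excitatory neuron-like cells 4 of 30 were higher and 0 lower, beside 953 higher and 143 lower of 12343 genes in all: Cp (0.919 and 1.5 CPM), Tfr2, a second transferrin receptor (9.03 and 12.8 CPM; log2 ratio 0.51, 0.34 to 0.67), Slc25a37 (11 and 14.9 CPM) and Slc39a8 (2.40 and 3.24 CPM). In interneuron-like cells 1 of 26 was past the fold (814 higher and 267 lower of 11241 genes in all), again Tfr2, with 8.05 and 12.1 CPM (0.59, 0.22 to 0.96). Subcortical neuron-like cells had 5 of 29 higher and 4 lower, beside 1971 higher and 1242 lower of 12127 genes in all. Hjv, a co-receptor for iron signals, was farthest apart at 1.04 and 4.15 CPM (21 and 120 UMIs), in a class whose clusters differed between the libraries.

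Genes whose level followed that of a member over the 12 classes in both libraries were listed by Pearson's r of log2(CPM + 1) across these 24 points, out of 12554 genes with at least 1000 UMIs. The points share 2 libraries and free RNA, so r is a description. Fth1 was most like Fmnl2 (r = 0.905), Mbp (0.903) and Folh1 (0.897), and Trf was most like Cers2 (0.935), Ppfibp2 (0.933) and Arsg (0.929). Slc40a1 followed Arap3 (0.953), Grap (0.931) and Fli1 (0.922), Tfrc followed Egln2 (0.832), Sema7a (0.805) and Far2 (0.80), and Heph followed Nat8 (0.968), Nat8f5 (0.949) and Prodh (0.929). Steap3 was most like Serping1 (0.901), Fzd2 (0.864) and Col1a2 (0.862). Aco1 was most like Pomt2 (0.902), Caskin2 (0.891) and Itgav (0.859), Ireb2 like Mettl17 (0.874), Zbtb49 (0.867) and Erich5 (0.839), and Slc11a2 like Mterf4 (0.799), Elmod2 (0.754) and Ogg1 (0.739).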

How the data were processed

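The authors deposited raw UMI counts per gene and cell for 2 probe-based single-cell libraries, made with Cell Ranger against mm10 (version 8.0.0 per the labels' processing notes, 7.1.0 per the file headers). The members and lists were chosen with earlier results of these data known. Ftl1 was not analysed here. Cells with at least 500 UMIs, over 250 genes, log10 genes per log10 UMIs over 0.8 and under 20% mitochondrial UMIs were kept. Scrublet called only 2 and 3 doublets, so the top 2% by doublet score were dropped per library (308 and 295 cells). The libraries were integrated by reciprocal PCA and clustered in Seurat 5.3.0 (2000 variable genes, 30 components, resolution 0.8), leaving out members, other iron genes and sex-linked genes. A cluster was named for the class with the most markers raised at least 2-fold (3 or more) if that class also led its 10 top genes by fold, or, with no marker among those genes, if it was the only class with 3 raised markers. How clusters are named was settled with the clusters in view. UMIs were summed per class and library and divided by all UMIs of the class. No test was possible with 1 library per group. Ratios have exact conditional binomial 95% intervals, CPM exact Poisson and shares Clopper-Pearson intervals. The summed total was 206484739 UMIs in the control and 200305291 in the tomatidine library. The ratio and count steps were tested on simulated data. Named genes were all members in every named class, other iron genes past the fold (up to 4 per class) and the 2 with the most UMIs in each role, and the 3 genes most like each member. One gene that this rule names is not reported here. Positions and UTRs came from GENCODE M21 (GRCm38). The alternatives used other cell filters, doublet removal, integration, resolutions, a marker gate, TMM factors (edgeR 4.0.16), other scalings and other thresholds.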

Additional observations from a re-analysis of the deposited data

Results flagged for a closer look

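The first 2 results below concern differences in direction between groups of cells, which were not tested, with 1 library per group. The third is a signal in a gene outside the comparisons.

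By summed UMIs, Trf was lower in the tomatidine library in OPC-like cells (log2 ratio −1.06) and higher in ependymal-like cells (1.59), the opposite direction. The ependymal-like class held 34 and 14 cells with 210 and 284 Trf UMIs. In its tomatidine cells the 10% with the most Trf, rounded up to whole cells, held 94.7% of the UMIs. Its oligodendrocyte markers were 3200 and 6574 CPM. The median ependymal-like cell went the other way, with 242 CPM of Trf in the control and 140 CPM in the tomatidine library. A Trf UMI was found in 85.3% and 64.3% of the ependymal-like cells, so the higher sum rests on very few cells.

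Slc40a1 was higher in the tomatidine library in capillary-type endothelial-like cells (0.30, 0.13 to 0.47) and lower in venous-type cells (−1.54, −2.32 to −0.81). The venous-type value rests on 51 and 23 UMIs in 31 and 67 cells. Over the whole endothelial-like class the ratio was 0.10.

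A gene outside the members, Ftl1-ps1, an annotated copy of Ftl1 on chromosome 13, had 759 UMIs in the control and 834 in the tomatidine library (3.68 and 4.16 CPM). Its longest transcript matched that of Ftl1 at 906 of 910 aligned bases, with the same hairpin sequence in the 5′ UTR. Which of the 2 genes its probes read cannot be told apart here, so it was not used as a measure of Ftl1.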

How the results depend on the processing

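The 9 pairs of a member and a class past the fold numbered 7 to 12 under other cell filters, doublet handling, integration, resolutions, the marker gate, TMM factors and other scalings, and also without microglia-like cluster 17 or astrocyte-like cluster 28, 2 alternatives chosen after seeing the data. They became 18 with at least 20 UMIs, 5 with at least 500 UMIs and 1 at 1.5-fold, that of Trf in OPC-like cells. The 47 pairs of other iron genes became 71, 10 and 16 under the same settings and 39 to 55 otherwise. The 15 class-enriched pairs became 9 when cells were also limited to 200 to 6000 genes and under 10% mitochondrial UMIs and 8 at 4-fold, and 11 to 17 otherwise. At resolution 0.3 and without a cell filter 10 of the 12 classes could be formed. The UMI minimum also sets how many pairs can be counted. No share of all genes was computed for these alternatives, so their counts are descriptions and not a measure of stability.

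Trf in endothelial-like cells had a log2 ratio of 0.63 under these limits on genes and mitochondrial UMIs, a reversal, and Slc11a2 in the same cells 0.01 under the marker gate. The cause was not tested. Trf in OPC-like cells stayed lower in 10 of 10 alternatives, from −1.10 to −0.49. Among 665 values of member ratios, 565 stayed within the counting interval. Of 648 shares of cells with a UMI, 425 moved outside it at another thinning depth or without thinning. No paired analysis was possible because each group has 1 library. Depth limits Heph, Slc40a1 and Steap3 most, and pooling hides the spread between mice.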

Other observations

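Both clusters below were chosen after their values were seen. An unnamed cluster (cluster 29; 106 and 92 cells, a median of 6965 UMIs) was led by Ccl12, Gpr84 and Lag3 and had all 10 oligodendrocyte markers raised. It had 10632 and 7400 CPM of Trf and 4235 and 3800 CPM of Fth1, beside 16.7 and 32.6 CPM of Slc40a1 (16 and 26 UMIs).

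Cluster 6, also unnamed (636 and 528 cells, a median of 796 UMIs), was led by Hbb-bs, Bcas1 and Mobp, with S100b and Gfap also among its leading genes. Only 2 oligodendrocyte markers were raised in it. It had 5902 and 4633 CPM of Fth1 and 1172 and 727 CPM of Trf.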
